A study of Mus musculus with 2 samples.

Results

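The S-phase genes described here are 41 genes of the S-phase list of the Seurat package in mouse spelling, out of 32285 genes in the count matrices. They were taken by name, not by their values. The study cultured precursors from subcutaneous white adipose tissue (WAT) and interscapular brown adipose tissue (BAT) of newborn mice and sequenced the RNA of single cells on the 10x Genomics platform. Both cultures came from untreated C57/BL6J pups of both sexes at postnatal day 0 by the labels (the study's methods give day 1), and each library was made from a pool of 4 pups. The tissue was digested with collagenase for 35 min (WAT) or 50 min (BAT), and the cells were lifted with trypsin at confluency, reached in 4 days. Each depot is 1 library, so digestion time, pool and library cannot be told apart from depot, no value has a replicate and no test between depots was possible. Values are unique molecular identifiers (UMIs), the counted RNA molecules, summed over cells and scaled to 1000000 UMIs (CPM). All intervals are at 95% and cover the counting error of UMIs or cells only.

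The cells used were the first 1999 precursors of each depot, in the order of their barcodes, in the study's source data on clusters. They are only part of the cells the study named, and the names of the others were not used here. In all, 5261 cells were captured from WAT and 7009 from BAT, of which 4407 and 6137 pass the study's limits as applied here. The study reports the same number for WAT and a slightly higher one for BAT. Another 2374 and 4081 passing cells carry no name here. The 1999 precursors used here held 57368210 UMIs in WAT and 57780702 in BAT, with a median per cell of 27204 and 26900. The markers of adipose precursors were present, with Pdgfra at 115 CPM in WAT and 82.8 CPM in BAT, Pdgfrb at 153 and 147 CPM and Dlk1 at 480 and 389 CPM. Defining markers of the other cell types the study labels were at or near 0. The glial Sox10 was at 0 and 0.16 CPM, the leukocyte Ptprc at 0.10 and 0.07 CPM and the myogenic Myod1 at 0 and 0.09 CPM. The captured libraries shared 9 barcodes and the labelled cells 3.

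S phase is the part of the cell cycle in which the genome is copied. Before it, the Mcm2-7 helicase is loaded on DNA at origins with the help of Cdc6, and geminin (Gmnn) later keeps it from being loaded again. During it, primase and DNA polymerases copy both strands, the clamp Pcna holds polymerases on the template, ribonucleotide reductase (Rrm1, Rrm2) and thymidylate synthase (Tyms) supply nucleotides, and histone chaperones pack the new DNA. Transcription of many of these genes is switched on at the border of G1 and S by E2F factors, and many transcripts decline before mitosis. Adipose precursors divide in culture before they differentiate.

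The promoters of the genes are shown first, because the list was not built on sequence. RefSeq promoters (GRCm38.p6, 250 bases before to 50 after a start) were found for 31 of the 41 genes. No entry was matched for Mcm4, Gmnn, Gins2, Rfc2, Dscc1, Atad2, Tipin, Exo1, Usp1 and Ccne2. A promoter was searched on both strands for the 4 forms TTTCCCGC, TTTCGCGC, TTTGCCGC and TTTGGCGC, with overlapping matches counted, and a gene with several starts was counted if any of them held a match. A match was present in 13 of 31 (41.9%) of the S-phase genes, against 2.61% of the 27025 genes in the table and 5.00% of the other genes with at least 10 CPM in either depot. Among 34 replication genes outside the list the share was 35.3%, and among 44 genes of the G2/M list it was 6.82%. With the 5-letter core GGCGC the shares were 83.9% for the S-phase genes and 39.4% for all genes, but 73.8% for the other genes with at least 10 CPM and 81.8% for the G2/M list. Beside expressed genes the core was thus only 1.14 times as frequent, where the longer forms were 8.38 times as frequent. A match is a run of letters, not a bound site. The promoters of 5 genes are printed 5′ to 3′ on the strand of the gene, with the matched letters in capitals. Mcm5 (chr8:75109259-75109558, + strand) and Mcm6 (chr1:128359656-128359955, - strand) were chosen because they hold overlapping matches on opposite strands, Cdc6 (chr11:98907901-98908200, + strand) because of its sharp change over the cycle, Pola1 (chrX:93632106-93632405, - strand) because it differed most between depots, and Mrpl36 (chr13:73330759-73331058, + strand) as a member without a match.
Mcm5: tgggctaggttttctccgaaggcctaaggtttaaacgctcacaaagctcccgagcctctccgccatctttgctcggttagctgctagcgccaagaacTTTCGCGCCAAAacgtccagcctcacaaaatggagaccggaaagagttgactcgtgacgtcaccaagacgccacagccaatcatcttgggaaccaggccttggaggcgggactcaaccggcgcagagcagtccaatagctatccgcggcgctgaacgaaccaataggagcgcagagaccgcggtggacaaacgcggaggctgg
Mcm6: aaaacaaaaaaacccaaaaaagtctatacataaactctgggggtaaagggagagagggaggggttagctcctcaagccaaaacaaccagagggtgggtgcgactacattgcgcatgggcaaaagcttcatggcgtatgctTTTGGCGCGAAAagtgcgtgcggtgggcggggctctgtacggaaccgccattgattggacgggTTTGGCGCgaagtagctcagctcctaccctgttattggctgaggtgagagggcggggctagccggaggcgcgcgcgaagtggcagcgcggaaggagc
Cdc6: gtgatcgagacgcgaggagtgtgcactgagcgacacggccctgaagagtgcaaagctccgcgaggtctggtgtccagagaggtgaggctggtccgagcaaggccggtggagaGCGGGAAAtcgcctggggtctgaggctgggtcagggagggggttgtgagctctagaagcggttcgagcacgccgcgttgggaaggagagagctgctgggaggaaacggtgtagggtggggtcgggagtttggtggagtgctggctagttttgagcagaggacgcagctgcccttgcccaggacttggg
Pola1: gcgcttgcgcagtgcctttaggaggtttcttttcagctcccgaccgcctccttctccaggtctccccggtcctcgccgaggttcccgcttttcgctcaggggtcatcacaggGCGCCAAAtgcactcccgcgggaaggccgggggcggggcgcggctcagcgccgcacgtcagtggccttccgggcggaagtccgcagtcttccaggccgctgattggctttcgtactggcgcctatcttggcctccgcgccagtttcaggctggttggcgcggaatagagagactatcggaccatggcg
Mrpl36: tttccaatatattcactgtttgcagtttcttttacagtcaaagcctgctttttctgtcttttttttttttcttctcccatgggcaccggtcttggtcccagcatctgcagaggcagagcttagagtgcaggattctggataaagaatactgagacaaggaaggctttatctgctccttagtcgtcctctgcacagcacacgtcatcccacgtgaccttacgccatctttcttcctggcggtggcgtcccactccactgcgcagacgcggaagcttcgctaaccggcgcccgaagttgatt

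Every one of the 41 genes was counted in both depots, from Ung at 3.90 CPM in WAT and 4.02 CPM in BAT to Nasp at 97.6 and 92.1 CPM. UMIs of different genes are not captured with equal efficiency, so levels are compared between depots and not between genes. Among the genes that load and start the helicase, the Mcm6 subunit was at 55.9 CPM (53.9 to 57.8) in WAT and 45.9 CPM (44.2 to 47.7) in BAT, and the loading factor Cdc6 was at 6.28 CPM (5.64 to 6.96) and 5.92 CPM (5.31 to 6.58). The intervals of Mcm6 did not overlap and those of Cdc6 did. Of the replication machinery, the clamp Pcna was at 73.6 CPM (71.4 to 75.9) in WAT and 76.3 CPM (74.1 to 78.6) in BAT, and Dscc1, which loads the clamp for cohesion, was at 5.56 CPM (4.97 to 6.21) and 5.17 CPM (4.60 to 5.80). For both genes the intervals of the depots overlapped. Pcna and Tyms have near-identical pseudogene copies in the mouse, so part of their reads may have been lost or placed elsewhere.

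Of the genes that supply nucleotides, the large reductase subunit Rrm1 was at 80.2 CPM (77.9 to 82.5) in WAT and 80.0 CPM (77.7 to 82.3) in BAT, and the small subunit Rrm2 at 49.1 CPM (47.3 to 50.9) and 48.4 CPM (46.6 to 50.2). Both subunits thus had nearly the same share of UMIs in the depots. In the chromatin group, the histone chaperone Nasp was at 97.6 CPM (95.1 to 100.2) and 92.1 CPM (89.7 to 94.6), and Wdr76 at 6.52 CPM (5.88 to 7.21) and 5.76 CPM (5.16 to 6.42). In the fork and repair group, the deubiquitinase Usp1 was at 69.6 CPM (67.4 to 71.7) and 55.7 CPM (53.8 to 57.7), and the uracil glycosylase Ung at 3.90 CPM (3.41 to 4.45) and 4.02 CPM (3.52 to 4.57). Usp1 was higher in WAT by more than its counting error and Ung was not. The cyclin Ccne2 was at 9.53 CPM (8.75 to 10.4) and 8.51 CPM (7.78 to 9.30), and the late E2F repressor E2f8 at 6.24 CPM (5.61 to 6.92) and 5.26 CPM (4.69 to 5.89). The 3 other listed genes are not part of the replication machinery. Mrpl36, a protein of the mitochondrial ribosome, was at 53.0 CPM (51.2 to 54.9) in WAT and 61.5 CPM (59.5 to 63.6) in BAT, and Polr1b, a subunit of RNA polymerase I, at 8.38 and 7.27 CPM. The ubiquitin ligase Ubr7 was at 27.7 and 23.4 CPM.

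**Figure D1:**
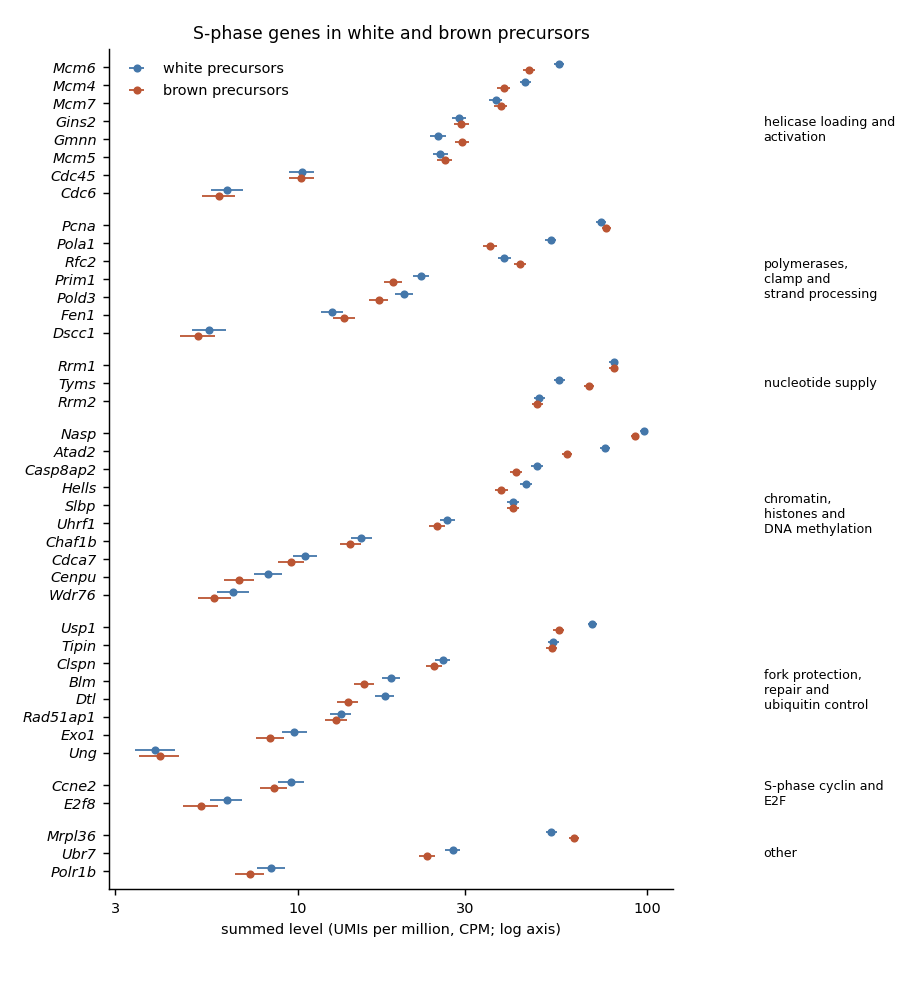
Summed level of each S-phase gene in CPM (log axis) in white (blue) and brown (orange) precursors, grouped by role; points are single libraries of 1999 cells and bars are 95% Poisson intervals of the counts. The points of a gene lie close together from Ung near 4 CPM to Nasp above 90 CPM, with Pola1 and Atad2 visibly higher in WAT and Tyms and Mrpl36 in BAT.

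Together the 41 genes took 1337 CPM (1328 to 1347) in WAT and 1257 CPM (1248 to 1267) in BAT, from 76703 and 72652 UMIs. The sum was thus 1.06 times as high in WAT, a log2 ratio of 0.09 (0.07 to 0.10). In the passing cells that carry no name here the log2 ratio was 0.19 (0.17 to 0.20), with 1437 CPM in WAT and 1263 CPM in BAT. By the study's counts these cells include some of other types, which it removed in a larger share in BAT than in WAT. Their part in the ratio was not tested. The direction was the same in both sets of cells, but the values lay outside each other's intervals, so counting error does not cover the difference between sets of cells from the same libraries. The median gene had a log2 ratio of 0.10, beside 0.04 over all 9041 genes with at least 10 CPM in either depot. By role, the median log2 ratio was 0.20 for the 2 S-phase cyclin and E2F genes and 0.16 for the chromatin genes. It was 0.16 for the fork and repair genes, 0.10 for the polymerase and clamp genes and 0.00 for nucleotide supply. The helicase genes had -0.01 and the 3 other genes 0.21. From the summed CPM of each group, in the same order, the log2 ratios were 0.20, 0.17, 0.18, 0.11, -0.08, 0.06 and -0.05. For the 3 other genes these measures thus differed in sign. The interval lay above 0 for 17 of the 41 genes, below 0 for 4 and spanned 0 for 20. At 10 CPM or more it lay above 0 for 13 of 32 and below 0 for 4, where 42.6% and 28.7% of all genes did, so the share above 0 was near that of all genes. A ratio of at least 1.3 in favour of WAT was reached by 1 of the 32 S-phase genes at 10 CPM, where 8.85% of all genes reached it, and by none in favour of BAT, where 3.94% did. With all cells that pass the study's limits, labelled or not, 5 of 34 genes reached it in favour of WAT (Pola1, Atad2, Blm, Usp1 and Dtl), where 8.98% of all genes did.

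Pola1, the catalytic subunit of the polymerase that primes both strands, was the gene past that ratio. It was at 52.9 CPM (51.1 to 54.9) in WAT and 35.4 CPM (33.9 to 37.0) in BAT, a log2 ratio of 0.58 (0.50 to 0.66). Atad2, a chromatin ATPase with a bromodomain, was at 75.6 CPM (73.4 to 77.9) and 58.7 CPM (56.8 to 60.7), with a log2 ratio of 0.36 (0.30 to 0.43). Dtl, the substrate receptor of the ubiquitin ligase that degrades licensing factors on chromatin-bound Pcna, was at 17.7 CPM (16.6 to 18.8) and 13.9 CPM (12.9 to 14.9), with 0.35 (0.22 to 0.49). All 3 were higher in WAT with intervals that do not overlap. At the other end, Tyms was at 56.0 CPM in WAT and 68.1 CPM in BAT, a log2 ratio of -0.28 (-0.35 to -0.21). Gmnn was at 25.1 CPM (23.9 to 26.5) and 29.5 CPM (28.1 to 30.9), with -0.23 (-0.33 to -0.13). Mrpl36 followed with -0.21 (-0.28 to -0.14), and the other gene with an interval below 0 was Rfc2, a subunit of the clamp loader, with -0.15 (-0.24 to -0.07). Within the supply of nucleotides, Tyms was thus higher in BAT while Rrm1 and Rrm2 had log2 ratios of 0.00 and 0.02.

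The ratio between the depots rose with gene length in these libraries. Over 9007 other genes the Spearman correlation of the log2 ratio with the length of the gene, introns included, was 0.51, and over the 41 S-phase genes it was 0.57. Genes share 1 pair of libraries, so these are descriptions. The median log2 ratio went from -0.12 for all genes under 5 kb to 0.27 for those over 100 kb. Pola1, the longest S-phase gene at 327 kb, sits in the last class, and Mrpl36 at 3.67 kb in the first. The median of the 500 genes of like length was then subtracted, a step chosen after the trend had been seen. Pola1 then had a log2 ratio of 0.27, Atad2 0.26, Dtl 0.25, Tyms -0.24, Rfc2 -0.16, Gmnn -0.14 and Mrpl36 -0.10. The 1 gene then past 1.3 times was Usp1, a short gene of 11.7 kb, with 0.39. The part of gene length in the ratios of single genes was not tested further. The X chromosome, which carries Pola1, had a median log2 ratio of 0.08 over 305 genes, beside 0.04 over the others.

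**Figure D2:**
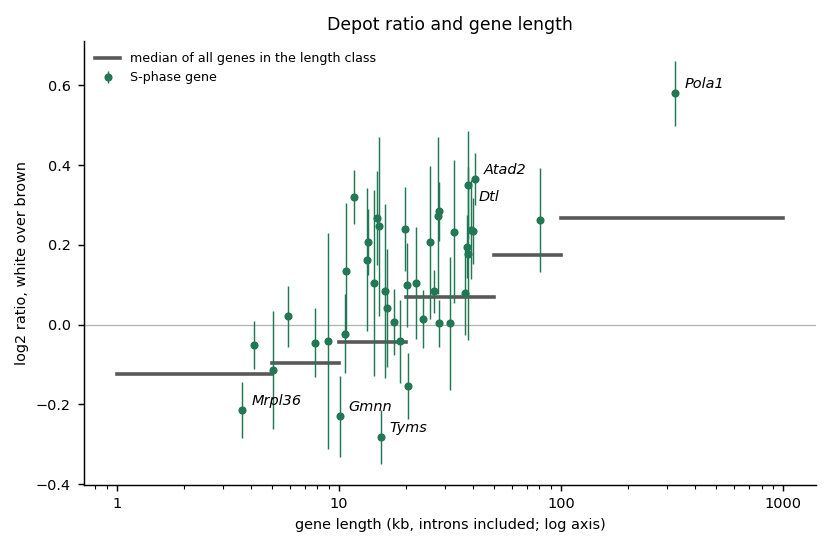
Log2 ratio of each S-phase gene, white over brown (points, bars are 95% counting intervals), against the length of the gene in kb (log axis); grey lines are medians of all genes with at least 10 CPM in each length class. The grey line climbs from -0.12 to 0.27 and most S-phase genes lie on or above it. Among those below it, Tyms, Rfc2 and Gmnn lie furthest from it.

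To ask how far the genes rise and fall together from cell to cell, each cell was thinned at random to 10000 UMIs, so that deep cells do not score higher for their depth. All 1999 cells of each depot had that many. A median cell then held 7 UMIs of the 41 genes in both depots, 90% of cells were at or below 32 in WAT and 30 in BAT, and the highest cells held 67 and 65. The distribution was thus a large group of cells with few such UMIs and a long tail. The pooled upper 25%, cells with more than 14 UMIs, took 24.2% (22.3 to 26.1) of WAT and 23.8% (22.0 to 25.7) of BAT cells, with 200 and 192 cells within 2 UMIs of that limit. The depots differed by 0.35 percentage points (-2.30 to 3.00). Cells in the upper 25% were deeper before thinning, with medians of 33093 against 25554 UMIs in WAT and 32602 against 25401 in BAT.

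Each gene was then correlated with the sum of the other 40 over the cells of a depot. The median Pearson r was 0.41 in WAT and 0.43 in BAT. A correlation of at least 0.2 in both depots was found for 36 of the 41 genes, and for 29 of the 31 with at least 10 CPM in both depots, where 3.07% of all 8587 such genes reached it against the sum of the S-phase genes. Atad2 followed the others most closely, with r of 0.69 in WAT and 0.64 in BAT, then Rrm2 (0.60 and 0.59), Pcna (0.63 and 0.58) and Hells, a chromatin remodeller needed for DNA methylation (0.58 and 0.59). These 4 genes belong to 3 role groups. The lowest values were those of Mrpl36 (-0.03 and -0.02) and Polr1b (0.00 and 0.00), followed by Ung (0.13 and 0.24) and Ubr7 (0.18 and 0.13). Few counts lower such a correlation, and Ung and Polr1b were under 10 CPM, but Mrpl36 was among the better counted genes. Without thinning, the median r was 0.63 and 0.62, and after thinning to 5000 UMIs it was 0.31 and 0.30. Of the genes with a promoter entry, those with an E2F match had a median r of 0.46 in WAT and 0.47 in BAT (13 genes), and those without 0.39 and 0.41 (18 genes). The 2 groups overlapped over most of their range, since Ubr7 holds a match and Rrm2 and Pcna do not.

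**Figure D3:**
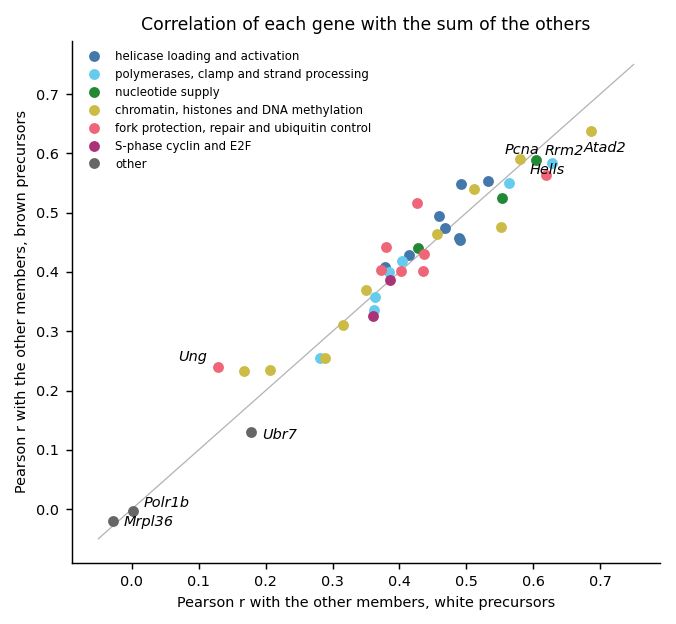
Pearson r of each S-phase gene with the sum of the other 40 over 1999 cells thinned to 10000 UMIs, white precursors on the x axis and brown on the y axis, coloured by role; the line marks equal values. Points run along the line from Mrpl36 and Polr1b near 0 to Atad2 at 0.69 and 0.64.

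Genes outside the list were ranked by the lower of their correlations with the summed S-phase genes in the 2 depots. The first was Pclaf, the Pcna-associated factor, with r of 0.71 in WAT and 0.70 in BAT, which is above that of every listed gene with the others. Next came the replication-dependent histone genes Hist1h2ap (0.66 and 0.64) and Hist1h1b (0.64 and 0.60), the formin Diaph3 (0.58 and 0.58), the helicase subunit Mcm3 (0.57 and 0.61), the chromatin protein Dek (0.54 and 0.55), Hist1h2ae (0.58 and 0.53), the helicase Brip1 (0.58 and 0.51), Fam111a (0.51 and 0.52) and the condensin subunit Ncapg2 (0.51 and 0.54). Histone genes are members of a family of near-identical copies, so their single values are uncertain. The first 50 held 13 of the 40 replication genes fixed outside the list and 5 of the 50 G2/M genes. Of those 40 replication genes, 31 had at least 10 CPM. Of these 31, 0 were past 1.3 times in either direction and 28 had r of at least 0.2 in both depots. The median log2 ratio of all 40 was 0.08. Hist1h1b was at 91.8 CPM in WAT and 64.5 CPM in BAT, and Hist1h2ae at 50.4 and 31.1 CPM. The log2 ratios of 0.51 and 0.70 for these histones were larger than those of nearly all S-phase genes, although both genes followed them closely from cell to cell. Hist1h2ap, the histone gene closest to the sum, did not share this difference. It was at 92.1 CPM in WAT and 90.4 CPM in BAT, a log2 ratio of 0.03.

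Position in the cycle was read from genes that are not on the list. Cells of each depot were ordered by the summed UMIs of 50 G2/M genes after thinning and divided into 10 bins of about 200 cells. The values by bin in this paragraph and the next are from thinned cells. The summed S-phase genes stayed between 514 and 820 CPM in bins 1 to 6 of both depots. They rose to 1261 CPM in WAT and 1258 CPM in BAT in bin 7, to 2536 and 2562 CPM in bin 8 and to 2700 and 2648 CPM in bin 9. In bin 10, where the G2/M genes were highest, they were back at 1661 and 1707 CPM. The sum was thus highest just below the top of the G2/M order in both depots. Of the 41 genes, 38 in WAT and 37 in BAT had their highest bin at 8 or 9, and 36 did in both. The share of all genes with their highest bin at 8 or 9 was not counted. No gene had its highest value in bin 10 of both depots.

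The genes differed in how far they fell from their highest bin to the top one. Ung was at 7.50 CPM in WAT and 17.5 CPM in BAT in bin 8 and had 0 UMIs in bin 10, and a limit of 3 counts over these cells is 1.51 CPM. Cdc6 was at 27.5 and 25 CPM in bin 8 and at 1.51 and 0.50 CPM in bin 10, and over bins 1 to 5 it averaged 0.90 and 0.30 CPM. Ccne2, the cyclin of S-phase entry, went from 34.0 to 2.51 CPM in WAT and from 26.0 to 3.02 CPM in BAT. Cdca7, an activator of Hells, fell to 20.5% and 17.5% of its highest bin. These 4 genes were thus at most at 20.5% of their highest bin in the cells richest in G2/M transcripts. At the other end, Usp1 was at 122 CPM in bin 10 of both depots, 94.3% of its highest bin in WAT and its highest in BAT. The centromere protein Cenpu kept 83.1% and 100% and the helicase Blm 83.8% and 80.6% of their highest bin. In between, the nucleotide group kept a median of 77.5% in WAT and 73.4% in BAT and the helicase group 49.1% and 57.6%. In all, 13 genes were under 50% of their highest bin in both depots, a count without a share over all genes beside it. Mrpl36 stayed between 41.5 and 60.0 CPM in WAT and between 52.5 and 70.5 CPM in BAT, with no shared peak.

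**Figure D4:**
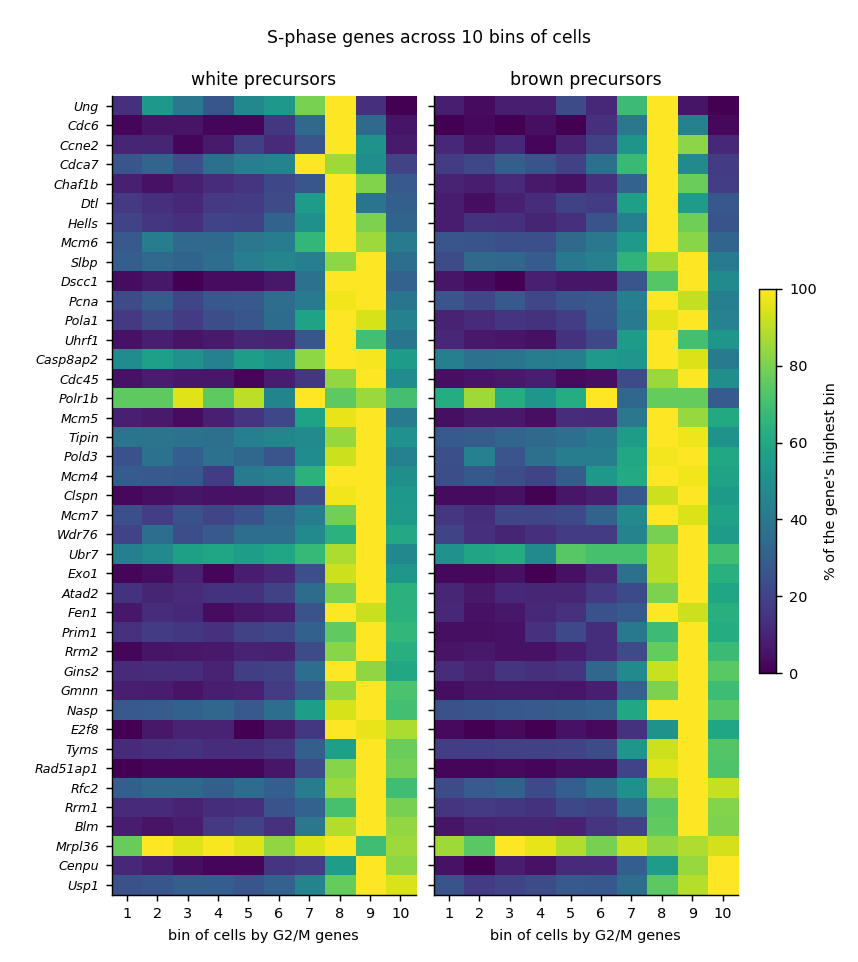
Each S-phase gene (rows) in bins of cells ordered by 50 G2/M genes (columns 1 to 10), as percent of the gene's own highest bin, in white and brown precursors; rows run from the genes that fell most by bin 10 to those that fell least. Most rows are dark in bins 1 to 6 and brightest in bins 8 and 9, Ung, Cdc6 and Ccne2 are dark again in bin 10, and Mrpl36 and Polr1b show no such pattern.

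The same position in the G2/M order held cells of unlike S-phase content. Of the 400 cells in bins 8 and 9, 129 (32.2%) in WAT belonged to the cluster wAPC 3 and 108 (27.0%) in BAT to bAPC 3, the clusters that the study marks with the mitotic genes Cdca3 and Kif20a. In these cells the 41 genes, from all UMIs without thinning, were at 1245 CPM (1206 to 1284) in WAT and 1250 CPM (1208 to 1292) in BAT. In the other cells of bins 8 and 9 they were at 3425 CPM (3388 to 3464) and 3149 CPM (3114 to 3185). The G2/M genes differed far less, at 4776 against 5189 CPM in WAT and 4617 against 5086 CPM in BAT. Per thinned cell, the median was 9 UMIs of the S-phase genes in wAPC 3 and 36 in the others, and 10 and 33.5 in BAT, with quartiles that did not overlap. The cells of wAPC 3 and bAPC 3 were also shallower, with medians of 23804 against 33925 UMIs and 23037 against 32417, and the part of depth was not tested. In both depots 39 of the 41 genes were lower in these clusters with an interval below 0. At 10 CPM or more they were 38 and 39 of 40, where 20.6% of all genes in WAT and 17.5% in BAT were lower. Cdc45 was at 6.33 against 36.4 CPM in WAT and 5.12 against 37.0 CPM in BAT, and Rad51ap1 at 9.18 against 50.8 CPM and 6.21 against 47.3 CPM. The interval of Polr1b spanned 0 in both depots, and Mrpl36 was higher in wAPC 3, at 66.8 against 47.0 CPM, while its interval in BAT spanned 0. The clusters were made from these same counts, so this is a description of them and not a test.

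The small excess of the S-phase genes in WAT was not even over the cycle. From all UMIs without thinning, the sum in bins 1 to 5, with few G2/M transcripts, was at 639 CPM in WAT and 562 CPM in BAT, a log2 ratio of 0.19 (0.15 to 0.22). In bins 8 and 9 it was at 2867 and 2730 CPM, a log2 ratio of 0.07 (0.05 to 0.09), and in bin 10 at 1722 and 1723 CPM, with 0.00 (-0.04 to 0.04). From thinned cells, which weigh the same whatever their depth, the ratios were 0.17 (0.12 to 0.22), 0.01 (-0.03 to 0.05) and -0.04 (-0.11 to 0.03). The excess in bins 8 and 9 was thus not seen after thinning, while that in bins 1 to 5 was. These divisions were chosen after the data had been seen. Pola1 had log2 ratios of 0.90 (0.71 to 1.09), 0.47 (0.35 to 0.58) and 0.27 (0.03 to 0.51) in the 3 ranges, and Tyms of -0.50 (-0.67 to -0.34), -0.19 (-0.28 to -0.09) and -0.12 (-0.26 to 0.02). Both ratios were thus widest in cells with few cycle transcripts. After thinning they were 0.99, 0.35 and 0.36 for Pola1 and -0.50, -0.25 and 0.13 for Tyms, whose interval in bin 10 spanned 0 (-0.15 to 0.41). Gmnn behaved otherwise, with 0.04 (-0.30 to 0.37) in bins 1 to 5 and -0.28 (-0.42 to -0.15) in bins 8 and 9.

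Across the study's clusters the summed genes varied by up to 1.50 times. The study removed cell cycle scores, which use such genes, before it clustered the cells. In WAT the sum was at 1440 CPM (1420 to 1460) in wAPC 1, 1408 CPM (1382 to 1435) in wAPC 2 and 1404 CPM (1348 to 1462) in wAPC 4, whose intervals overlap in pairs, and at 1119 CPM (1094 to 1145) in wAPC 3. In BAT it ran from 1000 CPM (972 to 1029) in bAPC 4 to 1496 CPM (1469 to 1522) in the committed adipogenic precursors (bCAPs). Among clusters of at least 50 cells, 29 of the 41 genes had their lowest value in wAPC 3 in WAT and 23 in bAPC 4 in BAT, and 26 had their highest in bCAPs. With the 15 differentiating wFAPLs counted as a cluster, 18 genes were lowest in wAPC 3 and 19 in those few cells. The shares of all genes lowest or highest in each cluster were not counted. These counts can therefore not be called particular to the S-phase genes. The highest cluster of at least 50 cells was 1.29 times the lowest in WAT and 1.50 times in BAT. For comparison, the few labelled glial cells had 1851 CPM in WAT (20 cells) and 2112 CPM in BAT (22 cells), the myeloid cells 2581 CPM (14 cells) and 2649 CPM (27 cells), and the 8 myoblasts of BAT 580 CPM.

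**Figure D5:**
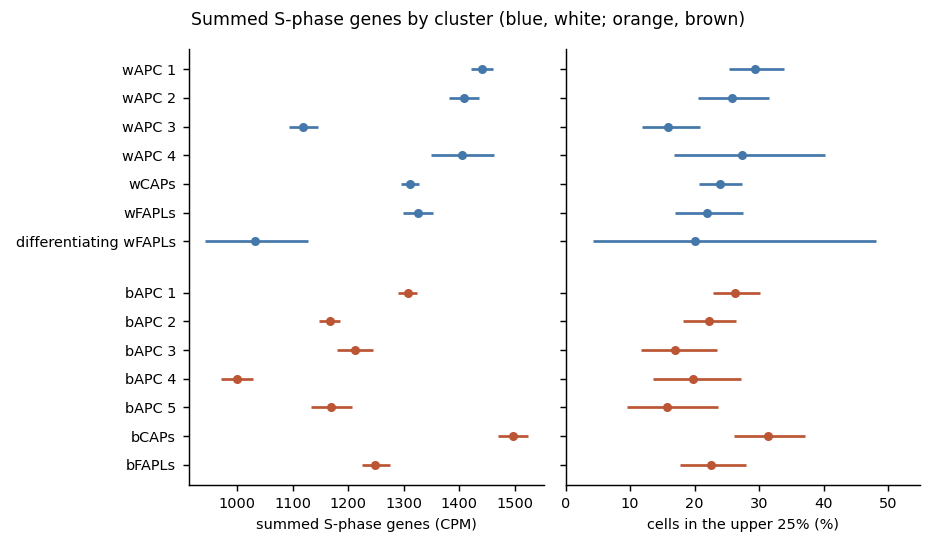
Summed S-phase genes in CPM (left; axis does not start at 0) and percent of cells in the pooled upper 25% (right) for each named cluster, white above and brown below; bars are 95% Poisson and Clopper-Pearson intervals for counting error. The bCAPs lie highest in BAT on both scales, wAPC 3 and the 15 differentiating wFAPLs lowest in WAT by level, and bAPC 4 lowest in BAT by level.

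Committed precursors (CAPs), which have higher Pparg, and fibro-adipogenic progenitor-like cells (FAPLs) are the groups the study compares within each depot. In WAT the sum was at 1311 CPM in wCAPs (674 cells) and 1326 CPM in wFAPLs (256 cells), a log2 ratio of -0.02 (-0.05 to 0.02). In BAT it was at 1496 CPM in bCAPs (296 cells) and 1249 CPM in bFAPLs (279 cells), a log2 ratio of 0.26 (0.22 to 0.30). The interval lay above 0 for 20 of the 41 genes in BAT and below 0 for 0, and in WAT for 4 above and 3 below. At 10 CPM or more it lay above 0 for 19 of 35 genes in BAT, where 20.7% of all genes did, and below 0 for 0, where 15.6% did. In WAT it lay above 0 for 3 of 34 and below 0 for 3, where 20.5% of all genes did in either direction. Ratios of at least 1.5 were reached in favour of bCAPs by 4 of 35 genes at 10 CPM (Cdc6, Gmnn, Uhrf1 and Cenpu), where 5.56% of all genes reached it, and in favour of bFAPLs by 0, where 4.34% did. After each cell was thinned to 10000 UMIs, 7 genes reached it in favour of bCAPs. The share of all genes after thinning was not counted, so the 7 cannot be set against 5.56%. In WAT 1 of 34 genes reached it in favour of wCAPs (Cdca7) and 1 in favour of wFAPLs (Ccne2), where 4.23% and 4.48% of all genes did. The median of the genes was 0.25 in BAT, beside 0.04 over all genes, and -0.01 in WAT, beside 0.01.

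The genes that differed most in BAT were Cdc6, at 10.7 CPM in bCAPs and 5.57 CPM in bFAPLs with a log2 ratio of 0.95 (0.40 to 1.51), E2f8, at 9.02 and 4.91 CPM with 0.88 (0.29 to 1.49), and Uhrf1, which brings the maintenance DNA methyltransferase to new DNA, at 35.2 and 20.4 CPM with 0.79 (0.50 to 1.08). The lowest ratios had intervals that span 0, for Polr1b -0.58 (-1.25 to 0.08), Blm -0.15 (-0.51 to 0.20) and Hells -0.10 (-0.33 to 0.12). In WAT the highest were Ung with 0.78 (0.01 to 1.63) from 79 and 17 UMIs, Cdca7 with 0.61 (0.14 to 1.10) and Mcm5 with 0.30 (0.04 to 0.57). The lowest were Ccne2 with -0.61 (-0.99 to -0.23), Cdc6 with -0.44 (-0.92 to 0.06) and Ubr7 with -0.32 (-0.55 to -0.09). Cdc6 thus stood at the upper end in BAT and at the lower end in WAT, where its interval spans 0.

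Beside this excess stands the spread of the cells over the cycle. Of bCAPs, 44.6% lay in bins 1 to 5 of the G2/M order and 22.0% (17.4 to 27.1) in bins 8 and 9, against 55.2% and 17.9% (13.6 to 22.9) of bFAPLs. Within bins 1 to 5 the sum was at 513 CPM in bCAPs and 490 CPM in bFAPLs, a log2 ratio of 0.06, and within bins 8 and 9 at 3358 and 3067 CPM, a log2 ratio of 0.13. Both were smaller than the 0.26 over all cells, and after thinning they were 0.042 and 0.18. The other bins went in both directions. In bins 6 and 7 the sum was lower in bCAPs, at 921 CPM against 1066 CPM in bFAPLs. In bin 10 it was higher in bCAPs, at 2085 against 1562 CPM (these values without thinning). The part of cycle position in the excess of bCAPs was not tested. In WAT the log2 ratio was 0.20 within bins 8 and 9, with 3618 CPM in wCAPs and 3145 CPM in wFAPLs, although the sums over all cells were alike, and after thinning it was 0.24. There 15.0% of wCAPs and 19.9% of wFAPLs lay in those bins. This division was also chosen after the data had been seen. The upper 25% held 31.4% (26.2 to 37.0) of bCAPs and 22.6% (17.8 to 27.9) of bFAPLs. It held 23.9% (20.7 to 27.3) of wCAPs and 21.9% (17.0 to 27.4) of wFAPLs. The intervals overlap narrowly in BAT and widely in WAT, and an overlap does not show that shares are equal.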

How the data were processed

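Single-cell RNA was measured in 1 library per depot. The authors counted UMIs with Cell Ranger 7.0.1 (per the submitters' processing notes) on mm10, and the deposited values are raw counts per gene and cell without normalization. This version counts reads in introns by default, and the study's methods state that default parameters were used. Cells were the first 1999 of each depot, in barcode order, with a cluster name in the source data; names of further cells were not used here. All pass the study's limits (3900 to 7700 genes, 6000 to 60000 UMIs, 1.7 to 5% mitochondrial UMIs). Doublets were limited by these upper limits alone. Counts were summed per depot or cluster with Python 3.11.15, numpy 2.4.6, scipy 1.17.1 and pandas 2.3.3. Intervals are exact Poisson, Clopper-Pearson or conditional binomial. Folds were counted at 10 CPM or more. Gene lengths came from GENCODE M21 (GRCm38). Scripts for ratios and thinning were tested on simulated data. The genes, lists and thresholds were chosen with earlier results of these data known. Genes were named by rank within role, depot ratio, correlation, fall over the cycle and CAP over FAPL ratio. Other settings were all passing cells, other denominators, thinning, cell weights, bins, motif forms and clusters left out. Genes of the list not reported here were left out.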

Additional observations from a re-analysis of the deposited data

Results flagged for a closer look

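The log2 ratio of the summed S-phase genes, CAPs over FAPLs, was 0.26 in BAT and -0.016 in WAT, with counting intervals that do not overlap. With 1 library per depot the difference between the depots was not tested. Cells that the study's limits removed were not part of the comparisons and carried S-phase transcripts too. Those above the maximum of genes or UMIs had 1829 CPM in WAT (239 cells) and 1528 CPM in BAT (412 cells), against 1396 and 1269 CPM in cells that passed. Those below the minimum, with at least 1000 genes, had 1058 CPM in WAT (371 cells) and 936 CPM in BAT (233 cells). The G2/M genes moved the same way, at 5189 and 4526 CPM above the maximum and 2415 and 2334 CPM below the minimum.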

How the results depend on the processing

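No paired analysis was possible because each depot is 1 library. Of 98 values under other settings for the main comparisons, 54 stayed within the counting interval or within 1.5 times of the count reported. The log2 ratio of the sum, white over brown, stayed above 0 over cells of all bins but moved to 0.14 with all cells that pass the limits, 0.19 with those that carry no name here, 0.15 with all captured cells, 0.067 without mitochondrial and ribosomal protein genes, 0.062 with equal weight per cell, 0.046 after thinning and 0.11 without wAPC 3 and bAPC 3. By position it was 0.19 in bins 1 to 5, 0.071 in bins 8 and 9 and reversed to -0.00067 in bin 10, and on thinned cells 0.17, 0.0075 and, reversed, -0.039. The intervals in bin 10 span 0. With all passing cells, 5 genes were past 1.3 times in favour of WAT in place of 1. CAPs over FAPLs in BAT was 0.31 with equal weight per cell, 0.064 in bins 1 to 5 and 0.13 in bins 8 and 9, and in WAT 0.20 in bins 8 and 9. On thinned cells these were 0.042 and 0.18 in BAT, and -0.055 and 0.24 in WAT. Genes past 1.5 times were 7 in bCAPs after thinning, 0 or 2 in wCAPs and 0 in wFAPLs under settings that include equal weights, another denominator and no minimum. The shares of all genes past 1.5 times were not counted under these settings. The median r was 0.31 and 0.30 at 5000 UMIs and 0.63 and 0.62 without thinning. With 5 bins, of which the top one holds bins 9 and 10, the genes highest in the top bin were 24 and 25 and those under 50% were 5 and 3. With 10 bins, the genes highest in the top bin were 1 in WAT with all passing cells, and 1 in BAT with all passing cells, without thinning and without wAPC 3 and bAPC 3. After thinning to 5000 UMIs, 6 of the first 10 like genes were shared. The share of promoters with a longer form was 16.4 times that of all other genes and 8.38 times that of other genes at 10 CPM or more. With the 5-letter core it was 2.13 and 1.14 times. The cause of these moves was not tested, apart from the 5 bins, whose top one is wider by construction. Genes under 10 CPM and small clusters are limited by depth, as for Ung with 0 UMIs in bin 10.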
